A study of Mus musculus with 2 samples.

Results

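Integrins and the proteins of focal adhesions were examined in 4T1, a mammary carcinoma cell line of the mouse, after co-culture with M2 macrophages or as control cells. The 39 genes were chosen by name, as 14 integrin α subunit genes, 8 integrin β subunit genes and 17 genes of adaptors, kinases and actin linkers, out of 51912 Ensembl genes in the deposited table. Every one of the 39 names matched 1 row. The co-culture library came from 4T1 cells held for 3 days in the lower chamber of a transwell, a vessel whose permeable membrane kept the M2 macrophages in the upper chamber. The control library came from 4T1 cells labelled only as control, and the sources used here do not say whether their wells held an empty insert. The labels name no genotype, agent or clone for either library, and nothing is stated of how the macrophages were made. There was 1 library per group, so no replicate error exists and no test between the groups was made. Values are TPM, a measure of transcript abundance per transcript length that is scaled to the same total in each library, in the units the authors deposited.

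Integrins are receptors of an α and a β chain that bind matrix proteins outside the cell. Talin and kindlin bind the tail of the β chain inside the cell and switch the receptor on. Vinculin, α-actinin and filamin then tie the adhesion to actin, while the kinases FAK and Src, with paxillin and the docking protein BCAR1, pass on the signal. In breast carcinoma the pairing of the αv and β3 chains is known as a receptor for vitronectin and osteopontin, and has been studied for its part in spread to bone.

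The libraries were described as a whole before the genes were. In the co-culture library 16198 Ensembl genes had a TPM above 0, against 15922 in the control library. Assembled loci without an Ensembl identifier took 6.47% of the co-culture TPM and 4.38% of the control TPM, and their positions are not in the table, so reads of a named gene that went to such a locus cannot be counted. Krt8 and Krt18, keratin genes of simple epithelium, were among the abundant genes, and Krt8 had 630 TPM in co-culture and 548 TPM in the control. Krt18 had 484 TPM in co-culture and 439 TPM in the control. Other epithelial markers were low or absent. Epcam was listed at 0 in both libraries, and Cdh1 had 0.01 TPM in co-culture and 0.04 TPM in the control. Krt14 had 0.32 TPM in co-culture and 0.23 TPM in the control. Krt19 had 2.64 TPM in co-culture and 0.18 TPM in the control. Sequencing depth cannot be read from TPM. Genes whose 2 libraries averaged 1 TPM or more are called detected. Of 7 fibroblast markers only Pdgfra was detected, at 10.2 TPM in co-culture and 5.60 TPM in the control. No endothelial marker of 6 was detected. The identity of the cells was not tested.

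Of the 39 genes 27 were detected and 12 were not. The detected genes had at least 5.33 TPM in each library, so none of them passed the limit through 1 library alone. The log2 ratio, log2((co-culture TPM + 1)/(control TPM + 1)), was positive for 24 of the 27 and negative for 3. Over all 11258 detected genes 64.5% had a higher value in co-culture and 35.4% a lower value. The detected members had a median log2 ratio of 0.32, and all detected genes had a median of 0.17, a difference of 0.15. With 2-fold as the limit, 3 of the 27 were higher in co-culture and 0 were lower, against 4.95% and 2.14% of all detected genes. Of the detected genes that averaged 5 TPM or more, as the 27 do, 4.27% were 2-fold higher.

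The count of higher members depended on how the libraries were scaled. When the co-culture library was centred on the median ratio of genes averaging at least 10 TPM (a log2 shift of 0.12), this left 20 of 27 higher and 7 lower, with 55.4% of all detected genes higher. An unweighted TMM factor, a trimmed mean of the ratios (a log2 shift of 0.22), left 15 higher and 12 lower, with 47.1% of all detected genes higher. Itgb3, Itgav and Tns3 were 2-fold higher in the values as deposited and under both scalings. With the TMM factor Itgav was only just past the 2-fold limit, at a log2 ratio of 1.004. Of all detected genes, 3.61% were 2-fold higher after the first scaling and 2.85% with the TMM factor. In bulk RNA, a different make-up of the cell population and a different amount of RNA per cell cannot be told apart.

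**Figure D1:**
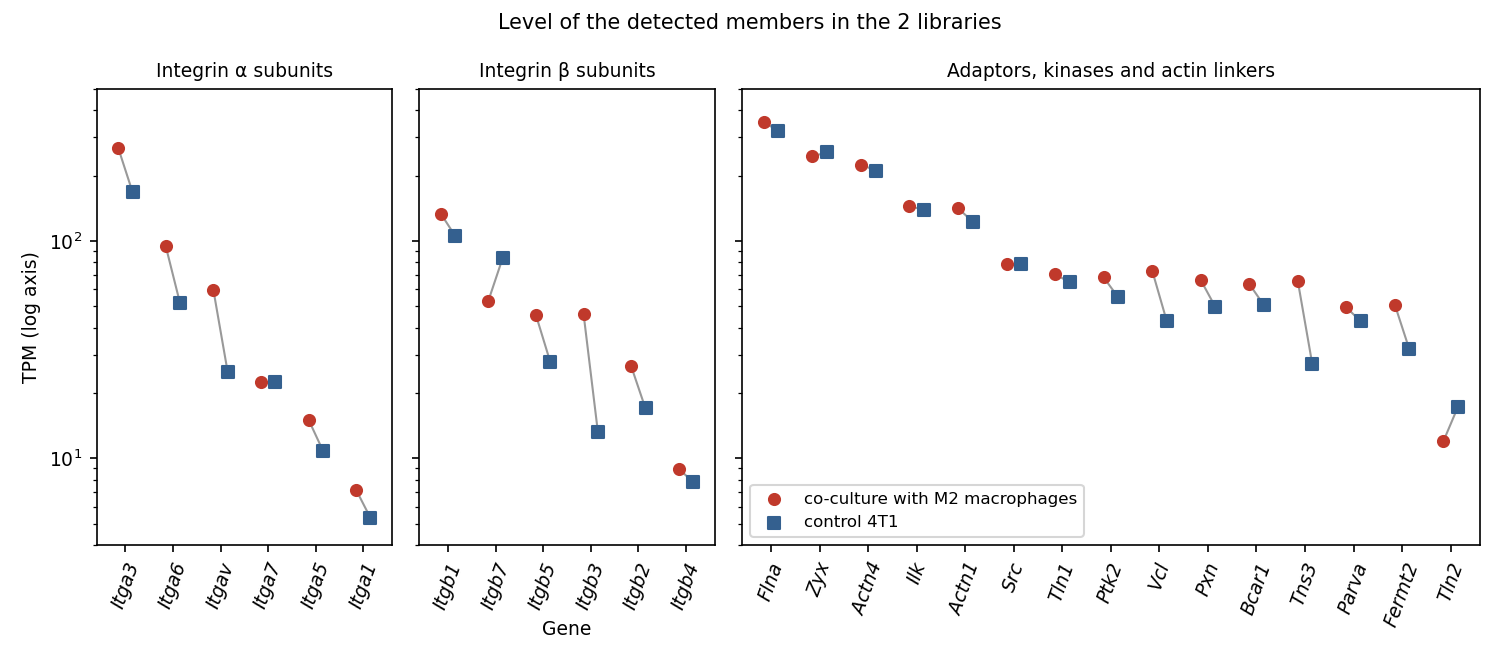
TPM (log axis) of the 27 detected members in the co-culture library (red circles) and the control library (blue squares), 1 library per group, with a grey line joining the values of a gene. Itgb3, Itgav and Tns3 have the longest lines upward in co-culture, at 45.94, 59.47 and 65.65 TPM in co-culture and 13.22, 24.98 and 27.13 TPM in the control.

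Among the α subunits, the gene of the αv chain had the largest ratio. Itgav (ENSMUSG00000027087), on chromosome 2 of GRCm38 from 83724397 to 83806916, had 59.47 TPM in co-culture and 24.98 TPM in the control, a log2 ratio of 1.22. It was at rank 298 of 11258 detected genes by ratio. The ratio was 0.95, below the 2-fold limit, once its trends with transcript length and with GC content were taken out. The detected members had a median transcript length of 4310 bases and a median GC content of 53.1%, against 3205.5 bases and 49.8% for all detected genes.

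The other 5 detected α subunit genes were below the 2-fold limit. Itga6, whose product binds laminins with either β1 or β4, had 94.4 TPM in co-culture and 51.6 TPM in the control (log2 ratio 0.86). Itga3, the gene of another laminin-binding chain, had 268 TPM in co-culture and 168 TPM in the control (0.67). These genes were the nearest to Itgav in ratio, and they were also the most abundant α subunit genes in each library. Itga5, the gene of the fibronectin receptor chain, had 15.1 TPM in co-culture and 10.9 TPM in the control. Itga1, the gene of a collagen-binding chain, had 7.16 TPM in co-culture and 5.33 TPM in the control, and its annotated span covers Pelo on the same strand, at 3.05 TPM in co-culture and 4.09 TPM in the control. Itga7, known as a laminin receptor of muscle, had 22.5 TPM in co-culture and 22.4 TPM in the control (0.00). Its ratio turned negative under all 3 other scalings and after length and GC trends were removed.

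The remaining 8 α subunit genes were not detected. Itga2, the gene of a collagen-binding chain, had 0.68 TPM in co-culture and 0.17 TPM in the control. Itga2b, the platelet partner of β3, had 0.48 TPM in co-culture and 0.50 TPM in the control. Itga4, Itga10 and Itgae had at most 0.22 TPM in either library, and Itga8, Itga9 and Itga11 were listed at 0 in both. These values lie at the low end of the table, where a ratio carries little information, and no fold is given for them.

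Among the β subunits, Itgb3 had the largest ratio of all 39 genes. Itgb3 (ENSMUSG00000020689), on chromosome 11 from 104608000 to 104670476, had 45.9 TPM in co-culture and 13.2 TPM in the control. Its log2 ratio was 1.72, at rank 108 of 11258, and stayed between 1.48 and 1.79 under every alternative tried. The chain it encodes pairs with αv on many cells and with αIIb on platelets. None of 6 platelet markers was detected. Their summed level was 1.46 TPM in co-culture and 0.48 TPM in the control, so it was also the higher in co-culture. The source of the Itgb3 transcripts was not tested.

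The other partners of αv differed from Itgb3. Itgb5, whose chain also forms a vitronectin receptor with αv, had 45.5 TPM in co-culture and 27.8 TPM in the control (log2 ratio 0.69). The level of Itgb3 divided by that of Itgb5 was 1.01 in co-culture and 0.48 in the control, so the 2 genes stood at about the same TPM in co-culture while Itgb5 was the higher in the control. Itgb1, the common partner of most α chains, had 133 TPM in co-culture and 106 TPM in the control (0.33). Itgb6 and Itgb8, which encode the αv partners known for activating latent TGF-β, were listed at 0 in both libraries. Itgb4, the hemidesmosome chain that pairs with α6, had 8.95 TPM in co-culture and 7.80 TPM in the control (0.18). Its ratio was negative with the TMM factor and after length and GC trends were removed.

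The genes of β chains known from leukocytes were detected while those of their partners were at or near 0. Itgb7 had 53.2 TPM in co-culture and 83.6 TPM in the control, and its log2 ratio of -0.64 was the lowest of the detected members. In lymphocytes its product pairs with the α4 and αE chains, whose genes Itga4 and Itgae were at or below 0.06 TPM here. Itgb2, the shared chain of the leukocyte receptors, had 26.5 TPM in co-culture and 17.0 TPM in the control (0.61). Its partner genes Itgal, Itgam and Itgad were listed at 0 in both libraries, and Itgax had 0.01 TPM in co-culture and was listed at 0 in the control. Of 16 macrophage and myeloid markers 2 were detected, Cd68 and Cd14, and 7 were listed at 0 in both libraries, among them Ptprc, Adgre1, Tyrobp and Fcer1g. The summed level of the 16 markers was 40.7 TPM in co-culture and 66.7 TPM in the control. Cd68 had 27.8 TPM in co-culture and 57.7 TPM in the control, and Cd14 had 12.4 TPM in co-culture and 8.87 TPM in the control, so the sum and Cd14 differed in opposite directions. No lymphocyte marker of 6 was detected.

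Levels of the subunits can be set beside each other, since TPM is a level per transcript length. The α subunit genes summed to 468 TPM in co-culture and 284 TPM in the control, and the β subunit genes to 314 TPM in co-culture and 255 TPM in the control. Itga3 made up 57.3% of the α sum in co-culture and 59.1% in the control, so the leading α gene held a like share in each. Itgav made up 12.7% of the α sum in co-culture and 8.79% in the control. In the β sum, Itgb3 took 14.6% in co-culture and 5.18% in the control, whereas Itgb7 took 17.0% in co-culture and 32.8% in the control. Itgb1 took 42.6% in co-culture and 41.4% in the control. These shares do not depend on the scaling of the libraries.

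The transcripts of chains that form a receptor together were not at equal levels. Itga3, whose known partner is β1, was at 2.01 times the level of Itgb1 in co-culture and 1.59 times in the control. Itga6 was at 10.5 times the level of Itgb4 in co-culture and 6.62 times in the control. Itgav was at 1.29 times the level of Itgb3 in co-culture and 1.89 times in the control. Protein levels and pairing were not measured.

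**Figure D2:**
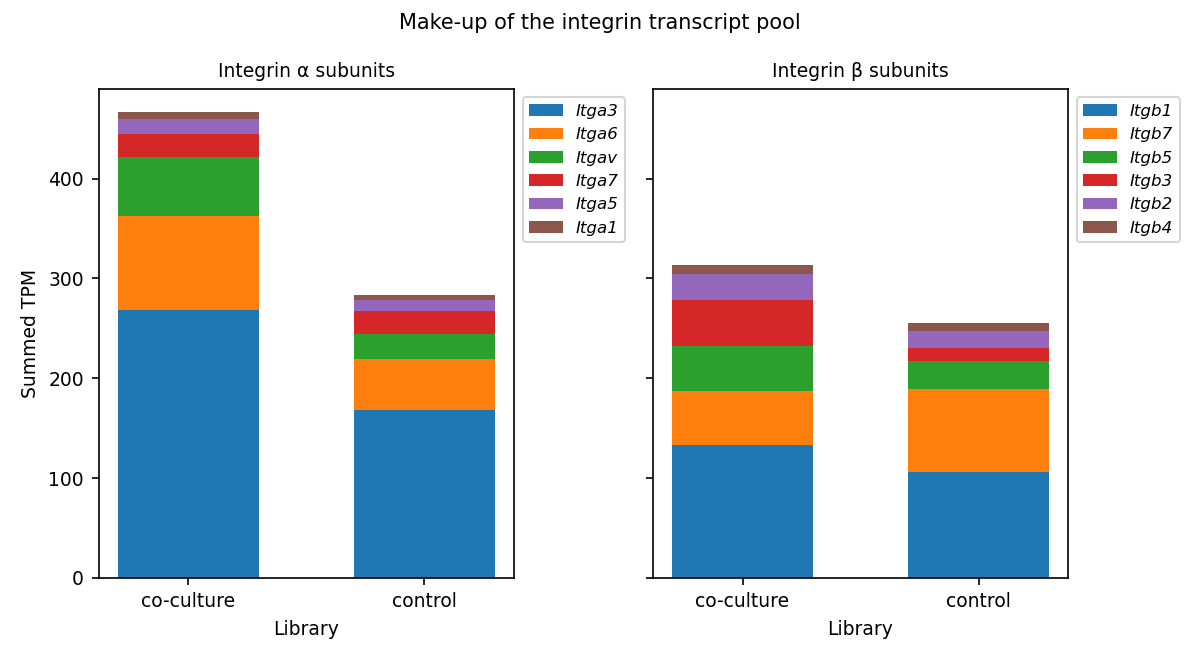
Summed TPM of the integrin α subunit genes (left panel) and β subunit genes (right panel) in the co-culture library and the control library, stacked by gene for those detected. The α column is taller in co-culture (468 TPM, against 284 TPM in the control), and in the β column the Itgb3 block is larger and the Itgb7 block smaller in co-culture.

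Among the cytoplasmic genes, Tns3 was the only member past 2-fold. Tns3 encodes a tensin, a protein that links β chain tails to actin, and lies on chromosome 11 from 8431652 to 8664535 (ENSMUSG00000020422). It had 65.7 TPM in co-culture and 27.1 TPM in the control, a log2 ratio of 1.24, at rank 280 of 11258. Its ratio stayed between 1.03 and 1.27 under every alternative tried. Tns1, the gene of a related tensin, was not detected, with 0.11 TPM in co-culture and 0.71 TPM in the control.

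The sequences upstream of Itgav and Tns3, 2 of the 3 members past 2-fold, are shown with that of Itgb7, the member with the lowest ratio, to let the start regions of genes that differed in opposite directions be compared. They are the 250 bases before the transcript start from RefSeq on GRCm38.p6, at chr2:83724147-83724396 (plus strand) for Itgav, chr11:8664536-8664785 (minus strand) for Tns3 and chr15:102231936-102232185 (minus strand) for Itgb7, written along the gene's strand. Capitals mark the GC box GGGCGG on either strand.
Itgav: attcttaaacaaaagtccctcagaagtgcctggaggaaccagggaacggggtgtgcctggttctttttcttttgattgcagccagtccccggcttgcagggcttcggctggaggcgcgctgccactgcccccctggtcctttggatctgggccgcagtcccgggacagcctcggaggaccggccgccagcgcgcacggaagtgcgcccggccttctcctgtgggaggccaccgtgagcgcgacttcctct
Tns3: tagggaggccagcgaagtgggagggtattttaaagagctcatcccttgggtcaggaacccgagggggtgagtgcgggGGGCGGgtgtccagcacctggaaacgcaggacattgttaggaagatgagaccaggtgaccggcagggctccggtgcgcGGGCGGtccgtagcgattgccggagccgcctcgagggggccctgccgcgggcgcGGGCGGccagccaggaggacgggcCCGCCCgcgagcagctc
Itgb7: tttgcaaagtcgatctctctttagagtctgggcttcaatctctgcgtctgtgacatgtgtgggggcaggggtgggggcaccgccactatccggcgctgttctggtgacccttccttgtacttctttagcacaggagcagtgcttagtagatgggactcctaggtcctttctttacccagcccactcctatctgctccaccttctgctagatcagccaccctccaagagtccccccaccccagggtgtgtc

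The Tns3 window held 4 GC boxes, the letters bound by SP1-type factors, which began 173, 95, 41 and 17 bases before the start, and the other windows held 0. Searches on both strands for the AP-1 motif TGANTCA, the CCAAT box, the E-box CACGTG, the TEAD motif CATTCC and the TATA box TATAAA found 0 matches in the 3 windows. No match overlapped that of another motif. GC content was 64.4% for Itgav, 69.6% for Tns3 and 56.0% for Itgb7, against a median of 52.4% over all 32851 windows. A GC box was present in 32.7% of all windows and in 59.8% of the 10822 windows of detected genes. RefSeq windows matched 18 of the 27 detected members, with 21 windows in all (Itgb3 was not matched), and 16 of these 21 held a GC box. AP-1 letters were in 2 of the 21, those of Actn4 and Zyx, against 4.43% of the windows of detected genes and 6.75% of all. The CCAAT box was in 4 of the 21, against 35.6% of the windows of detected genes and 33.8% of all. The TEAD motif was in 4, against 10.3% and 12.6% in the same order. The E-box was in 1, against 8.37% and 6.02%, and the TATA box in 0, against 5.90% and 12.4%. These matches describe the letters only.

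Vinculin and a kindlin gene had higher values in co-culture under every alternative tried. Among the cytoplasmic genes the same held for Tns3, Pxn, Bcar1 and Ptk2. The share of all detected genes for which it held was not computed. Vcl, the gene of vinculin, had 73.2 TPM in co-culture and 42.9 TPM in the control (log2 ratio 0.76), and its annotated span overlaps Ap3m1 on the opposite strand, at 15.9 TPM in co-culture and 15.8 TPM in the control. Fermt2, the kindlin gene detected in these cells, had 51.0 TPM in co-culture and 31.7 TPM in the control (0.67). Fermt1, the kindlin gene of epithelial tissues, was listed at 0 in both. Vcl and Fermt2 were the nearest to Tns3 among the cytoplasmic genes.

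The talin genes differed in opposite directions in the values as deposited. Tln1 had 70.2 TPM in co-culture and 64.7 TPM in the control, a log2 ratio of 0.12. It was -0.10 with the TMM factor and also negative after length and GC trends were removed. Tln2 had 12.0 TPM in co-culture and 17.3 TPM in the control (-0.49), and was lower under every alternative tried. Tln1 was the more abundant talin gene in both libraries.

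The signalling genes had log2 ratios between 0.00 and 0.40. Pxn (paxillin) had 66.2 TPM in co-culture and 49.9 TPM in the control (0.40). Bcar1 had 63.5 TPM in co-culture and 50.8 TPM in the control (0.32), and Ptk2, which encodes FAK, had 68.1 TPM in co-culture and 55.1 TPM in the control (0.30). These 3 stayed positive under every scaling. Src had 78.2 TPM in co-culture and 78.1 TPM in the control (0.00). Its ratio was negative under the other 3 scalings and after length and GC trends were removed.

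Flna, Zyx and both α-actinin genes, which encode actin-binding or adhesion linker proteins, had ratios between -0.06 and 0.20. Flna (filamin A), the member with the highest level in each library, had 351 TPM in co-culture and 321 TPM in the control (0.13). Its ratio was negative with the TMM factor and after length and GC trends were removed. Actn4 had 225 TPM in co-culture and 211 TPM in the control (0.09), and Actn1 had 142 TPM in co-culture and 123 TPM in the control (0.20). Both α-actinin genes were negative with the TMM factor, and Actn4 also with the median ratio. Zyx (zyxin, found at tension-bearing adhesions) had 245 TPM in co-culture and 255 TPM in the control (-0.06). Its ratio was 0.00 after length and GC trends were removed.

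Ilk and Parva encode members of the complex that couples β chains to actin through integrin-linked kinase. Ilk had 144 TPM in co-culture and 139 TPM in the control (0.05, negative with the median ratio and the TMM factor), and its span overlaps Taf10 on the opposite strand, at 222 TPM in co-culture and 308 TPM in the control. Parva had 49.6 TPM in co-culture and 42.7 TPM in the control (0.21, and 0.00 with the TMM factor). These overlaps are of whole annotated spans, and overlap of exons was not computed. No source used here states whether counting used strand, so how reads in such overlaps were assigned is not known. An overlapping detected gene was annotated for 6 of the 27 detected members and for 0 of the 3 past 2-fold. The same share over all detected genes was not computed, so these counts are not read as a result. Assembled loci have no positions and could not be included.

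**Figure D3:**
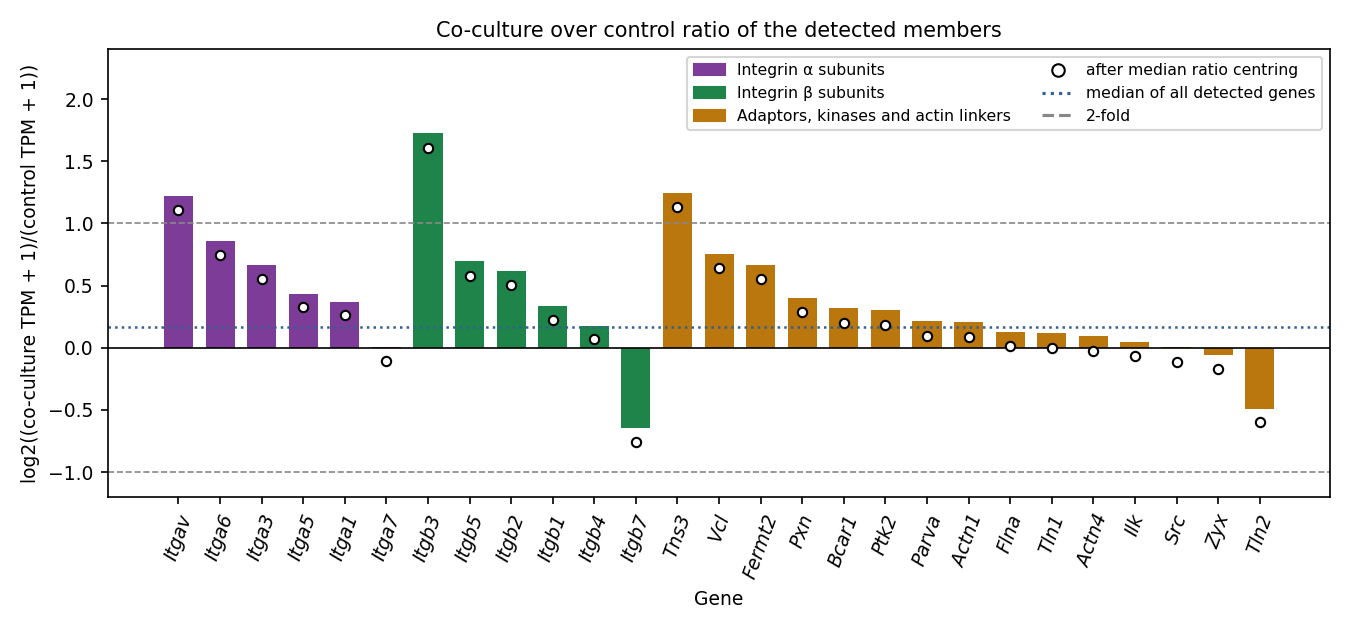
Bars show the log2 ratio of co-culture over control for the 27 detected members by role, open circles the same after median ratio centring, the dotted line the median of all detected genes (0.17) and the dashed lines 2-fold. Itgav, Itgb3 and Tns3 pass the upper dashed line with either scaling, and Itgb7 and Tln2 are the lowest.

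The ratios were summarised by role. The 6 detected α subunits had a median log2 ratio of 0.55 and the 6 detected β subunits 0.47, against 0.20 for the 15 detected cytoplasmic genes and 0.17 for all detected genes. With the TMM factor these medians were 0.34, 0.26, -0.01 and -0.03, and the median of the cytoplasmic genes differed from that of all genes by 0.04 in the values as deposited. Whether the integrin genes differ from the cytoplasmic genes was not tested.

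Other genes of focal adhesions were described beside the members. Of 54 such genes 44 were detected, 35 with a higher and 9 with a lower value in co-culture, with a median of 0.41, beside 64.5% of all detected genes higher. The counts became 27 higher and 17 lower with the TMM factor, beside 47.1% of all detected genes higher. Past 2-fold were 2 higher and 0 lower, a share of 4.55% against 4.95% of all detected genes. These were Arhgef7, an exchange factor of the Rac and Cdc42 GTPases, with 33.6 TPM in co-culture and 13.1 TPM in the control (1.30), and Tns4, another tensin gene, with 118 TPM in co-culture and 53.8 TPM in the control (1.12, and 0.91 with the TMM factor). Tns2 had 30.3 TPM in co-culture and 16.4 TPM in the control (0.85), so the 3 detected tensin genes had higher values in co-culture under each scaling. By the mean of both libraries, the most abundant genes of this list were Csrp1 at 115 TPM in co-culture and 156 TPM in the control, Vasp at 124 TPM in co-culture and 90.4 TPM in the control, and Lpp at 100.3 TPM in co-culture and 89.0 TPM in the control.

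Integrin-associated membrane proteins and cytosolic regulators differed in both directions. Of 18 genes 17 were detected, 12 with higher and 5 with lower values, with a median of 0.43. The share of higher values was 70.6%, near the 64.5% of all detected genes. With the TMM factor 10 were higher and 7 lower, beside 47.1% of all detected genes higher. Slc3a2, which encodes the heavy chain of an amino acid transporter that also binds β chains, had 131 TPM in co-culture and 354 TPM in the control (-1.42). Mmp14, a membrane-bound matrix metalloproteinase, had 69.2 TPM in co-culture and 33.7 TPM in the control, a ratio of 1.02 that was below 2-fold with the median ratio and with the TMM factor. The tetraspanin gene Cd9 had 479 TPM in co-culture and 250.2 TPM in the control, and the tetraspanin gene Cd63 had 909 TPM in co-culture and 1077 TPM in the control.

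Integrin ligand and matrix genes were described in the same way. Of 39 matched ligand and matrix genes 18 were detected, 16 with higher and 2 with lower values, with a median of 0.33, beside 64.5% of all detected genes higher. The counts became 11 and 7 with the TMM factor, beside 47.1% of all. Past 2-fold, as were 4.95% of all detected genes, were 2 of the 18, Thbs1 (thrombospondin, a ligand of several integrins) at 18.3 TPM in co-culture and 5.83 TPM in the control, and Tgfb3, whose latent form is held by αv integrins, at 11.6 TPM in co-culture and 4.30 TPM in the control. By the mean of both libraries, the most abundant ligand gene was Spp1 (osteopontin), with 716 TPM in co-culture and 390.0 TPM in the control (0.88), a ligand of the αvβ3 receptor. Mfge8, another ligand of αv receptors, had 338 TPM in co-culture and 312 TPM in the control (0.12, negative with the TMM factor). Lama5, a laminin chain gene, had 231 TPM in co-culture and 216 TPM in the control (0.10, negative with the median ratio and the TMM factor). Vtn, the gene of vitronectin, was listed at 0 in both libraries.

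**Figure D4:**
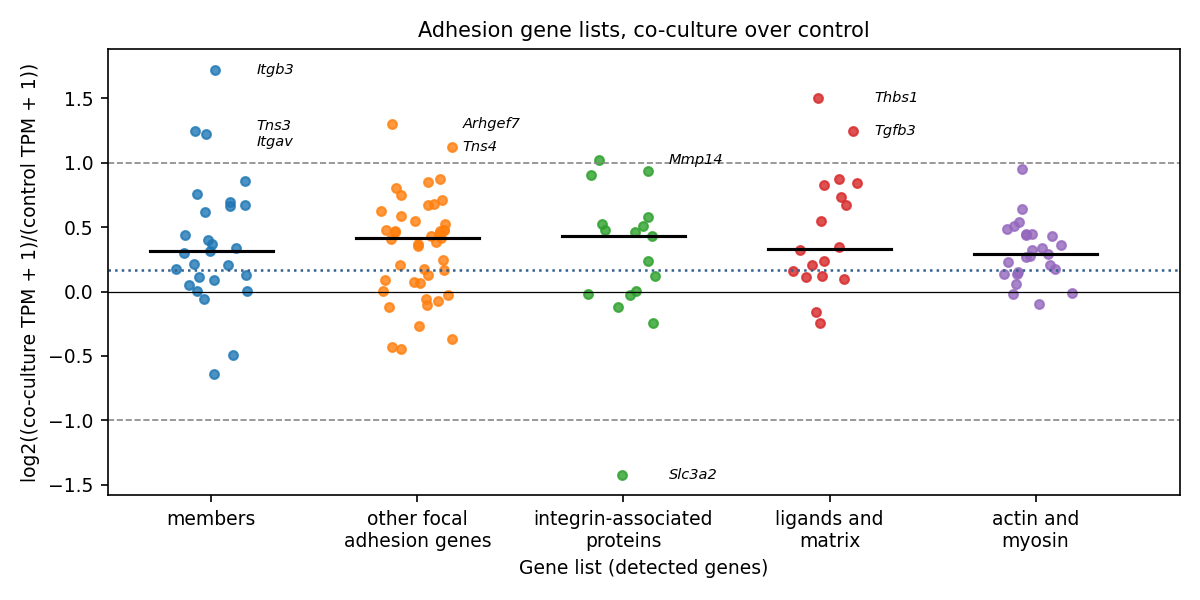
Each point is the log2 ratio of co-culture over control of 1 detected gene in the members, the other focal adhesion genes, the integrin-associated proteins, the ligand and matrix genes, and the actin and myosin genes, with black bars for list medians, a dotted line for the median of all detected genes and dashed lines for 2-fold. Genes past 2-fold are named, and Slc3a2 at -1.42 is the only one of them with a lower value in co-culture.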

How the data were processed

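Messenger RNA was measured by RNA sequencing in 1 co-culture and 1 control library. The authors deposited 1 table of TPM values, rounded to 2 decimals, with 1 column per library. Per the submitters' processing notes, HISAT2 2.1.0, RSEM 1.2.31 and GRCm38.p5 were used, with no roles stated. The sources used here state no annotation release, strandedness or filter. Of 52796 rows 884 are assembled loci and were left out. Symbols and positions came from GENCODE M21 (GRCm38), which named 51633 identifiers. Upstream sequences came from RefSeq. The co-culture sample is titled 4T2 and labelled 4T1 under treatment, and the treatment label was followed.

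From the deposited TPM, log2 ratios were computed with a pseudocount of 1, which understates the change of low genes, in Python 3.11.15 (pandas 2.3.3, statsmodels 0.14.6). Alternatives changed the pseudocount, the limits on level and fold, the scaling, a correction for length and GC content, and the biotypes kept. With 1 library per group there was no test. The code was run on a simulated pair of libraries with a known scaling factor and known changed genes. That run checks the calculation and gives no error for the 2-fold calls made here. Named genes were all members and, in other lists, those past 2-fold and the 3 most abundant by mean TPM. Integrin subunits outside the members and the detected cell type markers were also named. The undetected markers Epcam, Cdh1, Krt14, Ptprc, Adgre1, Tyrobp and Fcer1g were named outside these rules. Tns2, Vtn, Rock2, Myl9 and the genes overlapping members were added after their values were seen. The members and lists were chosen with earlier results of these data known. Ctgf, Cyr61 and Nov are older names of Ccn2, Ccn1 and Ccn3, which were matched.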

Additional observations from a re-analysis of the deposited data

How the results depend on the processing

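Itgb3 and Tns3 were 2-fold higher under all alternatives, and Itgav under all except the removal of length and GC trends (0.95). Itgav was only just past the limit with the TMM factor (1.004). Member counts: with a 1.5-fold limit 9 members were higher and 1 lower, and 11 other focal adhesion genes were higher. By that limit 18.6% of all detected genes were higher and 6.37% lower. With no filter on low values 6 members were lower and the median was 0.13, with the 12 undetected genes included. The median of all genes was then 0. With the median ratio 7 members were lower and the median was 0.20, beside 55.4% of all detected genes higher. With the TMM factor 15 were higher and 12 lower, beside 47.1% of all detected genes higher, and the median was 0.10. By that factor 1 other focal adhesion gene was 2-fold higher, beside 2.85% of all detected genes. Lower members numbered 5 after rescaling without mitochondrial genes and the 20 most abundant rows, and 7 after length and GC trends were removed. All detected genes then had medians of 0.15 and 0.17 in the same order. The share of all genes with a lower value was not computed for these settings or with no filter on low values. Those counts of lower members are therefore not read as a result. Signs turned under at least 1 alternative for 10 members, all with small ratios (Actn1, Actn4, Flna, Ilk, Itga7, Itgb4, Parva, Src, Tln1 and Zyx). How many of all detected genes turned sign was not computed.

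Over all 11258 detected genes, 886 (7.87%) were 2-fold higher with a pseudocount of 0.1. With a pseudocount of 5, 199 (1.77%) were higher and 129 (1.15%) lower. A minimum mean TPM of 10 kept 6808 genes, of which 244 (3.58%) were higher and 120 (1.76%) lower. At 1.5-fold 2099 (18.6%) were higher and 717 (6.37%) lower. With the TMM factor 321 (2.85%) were 2-fold higher and 379 (3.37%) lower. Among protein-coding genes 156 were lower. The main counts were 557 (4.95%) and 241 (2.14%). A median was taken as moved past 0.1, as no replicate spread exists. The minimum mean TPM of 5 was chosen after the data were seen. No paired analysis was possible because each group has 1 library. TPM keeps no depth, so counting error is unknown.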

Other observations

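Genes of actin, myosin and their regulators, whose products act on adhesions, had a median log2 ratio of 0.29, beside 0.17 for all detected genes. Of 26 genes 25 were detected, 22 with higher and 3 with lower values in co-culture, beside 64.5% of all detected genes higher. With the TMM factor 16 were higher and 9 lower, beside 47.1% of all higher. On the scale with the pseudocount 0 were past 2-fold, beside 4.95% of all detected genes higher by that limit and 2.14% lower. By the mean of both libraries the most abundant were Actg1 at 3097 TPM in co-culture and 2557 TPM in the control, Actb at 2081 TPM in co-culture and 1337 TPM in the control, and Myl12a at 1355 TPM in co-culture and 1448 TPM in the control. Reads of actin genes and their pseudogenes may have been divided between them. Rock2, a kinase that activates myosin, had 15.1 TPM in co-culture and 7.35 TPM in the control. Its log2 ratio of 0.95 was the largest of the list, and the plain ratio of its TPM values was 2.06. Myl9, a myosin light chain gene of smooth muscle, was listed at 0 in co-culture and had 0.05 TPM in the control.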
